A study of Mus musculus with 16 samples.

Results

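Gene expression was compared between KSL and KL cells under the Camkk2 null label, that is between the 4 arrays titled KSL KO and the 4 arrays titled KL KO, which are 8 of the 16 arrays of the series. Arrays were taken by their titles alone. The comparison ran across the 30638 probe sets that name 1 gene, of 72688 features in the deposited table, and these probe sets name 30176 genes. KSL cells are bone marrow cells without lineage markers that carry c-Kit and Sca-1, a population that holds the hematopoietic stem cells and the multipotent progenitors. KL cells carry c-Kit but not Sca-1, and are for the most part progenitors already committed to red cells, megakaryocytes, granulocytes or macrophages. As stem cells commit, transcription factors such as MEIS1 and HLF are turned down, and factors such as GATA1 and KLF1 (red cells) or CEBPA (myeloid cells) are turned up. CaMKK2 is a kinase that calcium-bound calmodulin activates and that phosphorylates AMPK and other calmodulin-dependent kinases.

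The groups were KSL cells from Camkk2-/- mice (KSL null), KL cells from Camkk2-/- mice (KL null), KSL cells from wild-type mice (KSL WT) and KL cells from wild-type mice (KL WT), each on 4 arrays, from the marrow of 16 mice per genotype, with no treatment. The labels name no cell type or Cre that would restrict the null allele, and the age of the mice and which part of the gene is deleted are not given in the sources used here. How the mice were divided among the replicates, and whether a KSL and a KL array of the same number share mice, is not given either, so the p-values below measure the spread between arrays labelled as replicates. Values are log2 signals, on which a difference of 1 is a doubling, and the small number of arrays limits their precision. In sorted bulk RNA, fewer cells of a type and less of an RNA per cell cannot be told apart.

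Neither Camkk2 nor the stem cell markers followed the labels, so every group name below stands for what the arrays are labelled, and every direction rests on those labels. Camkk2 itself, on chromosome 5, read 7.82, 7.93, 7.14 and 7.14 on the KSL null arrays and 7.83, 7.82, 7.08 and 7.12 on the KL null arrays, where the WT arrays read between 6.89 and 8.02. It was as high under the null label as under the WT label, with replicates 1 and 2 above replicates 3 and 4 in all groups. The paper reports that immunoblots of sorted lineage-negative c-Kit+ cells from null mice showed no CaMKK2 protein. Which part of the gene is deleted is not given, so this RNA signal cannot check the genotype label. Of 13 markers of stem cells and multipotent progenitors, 11 were measured, and their mean signal was 6.18 to 6.24 on the KSL null arrays and 6.38 to 6.56 on the KL null arrays. The mean of the list was thus lower on every KSL null than on every KL null array, against the cell label, although Meis1 and Cd34 were its only called members, 7 genes lay below 0 and 4 above, and the median difference was -0.04. The most dormant mouse stem cells lack Cd34, so the direction of that gene alone does not speak to the cell label. On the WT arrays all 11 lay below 0, with a median of -0.19 and mean signals of 7.18 to 7.46 in KSL WT and 7.41 to 7.55 in KL WT. The 13 markers of committed progenitors had mean signals of 10.05 to 10.30 on the KSL null arrays and 10.05 to 10.29 on the KL null arrays, which overlap throughout. Kit, the stem cell factor receptor that both gates require, was 9.25, 9.37, 9.22 and 9.41 on the KSL null arrays and 9.66, 9.70, 9.57 and 9.78 on the KL null arrays, a log2 difference of -0.37 (SE 0.117, adjusted p = 0.173). Ly6a, which encodes Sca-1, was not analysed here.

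**Figure D1:**
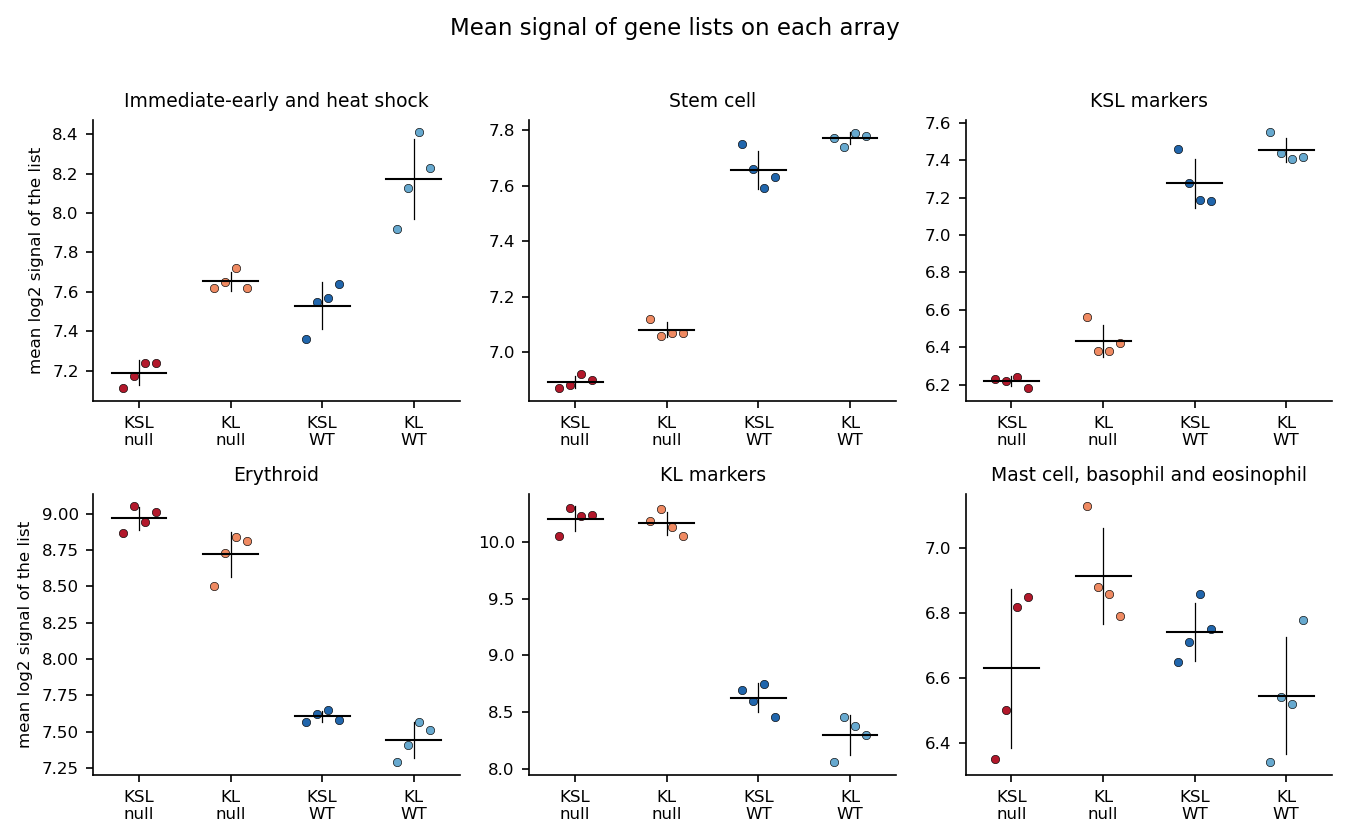
Mean log2 signal of 6 gene lists on each of the 16 arrays, in the order KSL null, KL null, KSL WT and KL WT. Points are arrays, horizontal lines are group means and vertical lines span 1 SD on each side (n = 4). The KSL null arrays lie below the KL null arrays for the immediate-early, stem cell and KSL marker lists and above them for the erythroid list, while the KL marker list overlaps.

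The arrays of both cell labels were closely alike. Across all probe sets that name 1 gene, Pearson's r was 0.9943 to 0.9967 over the 16 pairs of a KSL null and a KL null array, against 0.9956 to 0.9976 between KSL null arrays and 0.9961 to 0.9976 between KL null arrays. KSL null arrays were further from KSL WT arrays (0.9830 to 0.9886) than KL null arrays were (0.9882 to 0.9907). Of the sum of squares among the 8 null arrays, 28.3% fell on the cell label, which takes 14.3% of the degrees of freedom, and 38.8% on the replicate number, which takes 42.9%. These are descriptions across probe sets, which are not independent of each other.

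Probe sets are named called below where limma's adjusted p was under 0.05 and the fold reached 1.5. On that rule, 68 probe sets were lower (0.222% of those tested) and 11 were higher (0.0359%) in KSL null than in KL null. Without the fold minimum 241 were lower (0.787%) and 83 higher (0.271%). The called differences were small, with log2 sizes of 0.59 to 1.70 for the lower genes and 0.60 to 0.89 for the higher genes, and 13 of the lower genes and 0 of the higher genes reached a doubling. KSL null and KL null arrays did not overlap for 67 of the 68 lower and 10 of the 11 higher probe sets, where 4.39% and 4.48% of all probe sets did not overlap in those directions. Of the called probe sets, 6 lower and 1 higher were predicted genes or small RNAs. Just inside the fold minimum stood Sesn1, Rnf130 and Spns2 at -0.59, and just outside it Cd53, Rfc2 and Olfr248 at -0.58.

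**Figure D2:**
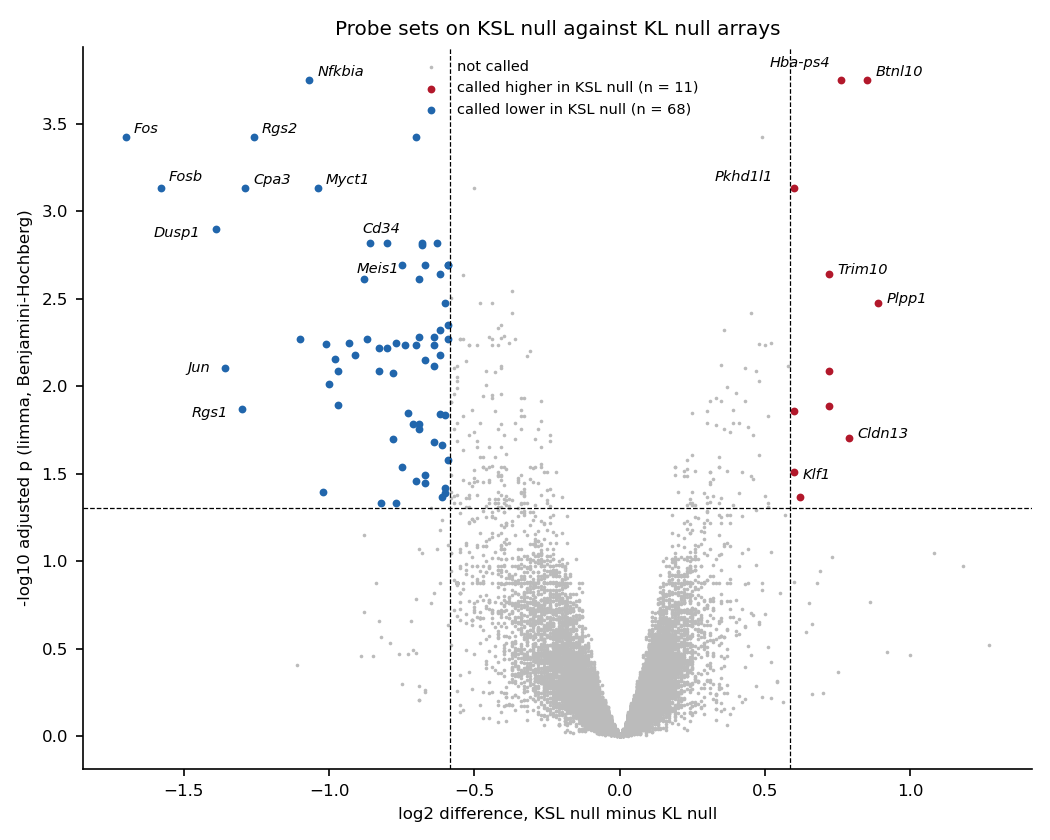
Each point is a probe set that names 1 gene, with its log2 difference (KSL null minus KL null) across and the -log10 of its adjusted p from limma upward. Dashed lines mark the fold minimum of 1.5 and the adjusted p of 0.05. The 68 probe sets called lower outnumber the 11 called higher and reach larger sizes, with Fos at -1.70 and Plpp1 at 0.89.

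Immediate-early genes, which cells switch on within minutes of a stimulus without new protein synthesis, held the largest differences. Of 32 measured genes of the immediate-early and heat shock list, 10 were called lower and none was called higher in KSL null, with a list median of -0.30 beside 0.02 for all probe sets. Fos, a subunit of the AP-1 transcription factor, was 7.22, 7.24, 7.37 and 7.44 on the KSL null arrays and 8.96, 8.88, 9.15 and 9.09 on the KL null arrays. Every KSL null array was below every KL null array, by more than the whole range within either group. The log2 difference was -1.70 (SE 0.179, adjusted p = 0.000379), which is 3.26-fold lower. Its relative Fosb was 6.98, 6.96, 7.44 and 7.24 on the KSL null arrays. On the KL null arrays Fosb was 8.59, 8.76, 8.89 and 8.71, with no overlap and a difference of -1.58 (SE 0.183, adjusted p = 0.000736). Jun, the AP-1 subunit that pairs with FOS, was 5.88, 6.53, 6.76 and 6.67 on the KSL null arrays and 7.65, 7.68, 8.23 and 7.74 on the KL null arrays. Here too the groups were apart, although KSL null replicate 1 was low and KL null replicate 3 high within their groups, and the difference was -1.36 (SE 0.229, adjusted p = 0.00787).

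Dusp1, a phosphatase that inactivates MAP kinases, was 7.13, 7.24, 7.62 and 7.59 on the KSL null arrays and 8.77, 9.01, 8.69 and 8.68 on the KL null arrays, a difference of -1.39 (SE 0.171, adjusted p = 0.00126). Nfkbia, which encodes the NF-kB inhibitor IkB-alpha, was 7.69, 8.05, 7.93 and 8.02 on the KSL null arrays and 8.91, 8.91, 9.22 and 8.92 on the KL null arrays, a difference of -1.07 (SE 0.101, adjusted p = 0.000178). Neither gene overlapped between the groups. Rgs1 and Rgs2, which speed up the GTPase of G protein alpha subunits, had differences of -1.30 (adjusted p = 0.0135) and -1.26 (adjusted p = 0.000379), and Rgs2 lay between 6.99 and 7.14 on the KSL null arrays and between 7.82 and 8.58 on the KL null arrays. Klf6, a zinc finger factor, was at -0.98, Ier2 at -0.97, the early activation antigen Cd69 at -0.91 and the antiproliferative gene Btg2 at -0.64. Ier2 lost its call without KL null replicate 1 (adjusted p = 0.0552), and Btg2 lost it in 5 of the 8 fits that each left out 1 array, with adjusted p values of 0.0519 to 0.071 without KSL null replicate 1 or 2 or KL null replicate 2, 3 or 4.

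Not all immediate-early genes were called. Dusp2, another MAP kinase phosphatase, passed the adjusted p but not the fold (-0.57, adjusted p = 0.0422), and would have been called without KL null replicate 4 (-0.65). The orphan nuclear receptor Nr4a1 was 6.85, 6.91, 6.90 and 6.86 on the KSL null arrays and 7.17, 7.05, 7.57 and 7.38 on the KL null arrays, which do not overlap, with a difference of -0.42 that did not pass (SE 0.311, adjusted p = 0.628). Nr4a2 at -0.42, Zfp36 at -0.50, Ptgs2 at -0.36 and Sik1 at -0.49 did not pass either. The heat shock genes of the list stood near 0, with Hspa8 at -0.02, Hspa1a at -0.02 and Dnajb1 at 0.01, so the genes called lower were the immediate-early members and none of the chaperones.

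Sequences are shown for the called immediate-early genes whose promoters hold a full cyclic AMP response element, the palindrome TGACGTCA. The window searched, on both strands, was the 250 bases before each start in RefSeq on GRCm38.p6. The element was in 1.55% of 32851 such windows and in 2 of the 7 called immediate-early genes that have a window, Dusp1 and Btg2. Each stretch reads 5' to 3' along the gene, and the capitals mark the element, which begins 143 bases before the start of Dusp1 (chr17:26508573-26508650, minus strand) and 166 bases before that of Btg2 (chr1:134079279-134079356, minus strand).
Dusp1: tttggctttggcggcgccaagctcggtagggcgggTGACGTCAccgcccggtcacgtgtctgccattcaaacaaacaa
Btg2: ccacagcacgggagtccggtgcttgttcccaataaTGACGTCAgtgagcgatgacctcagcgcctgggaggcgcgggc
The CArG box, the core of the serum response element, was in 1.47% of windows and in 0 of the 7. A match is a run of letters and not a measured site, and binding was not measured.

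**Figure D3:**
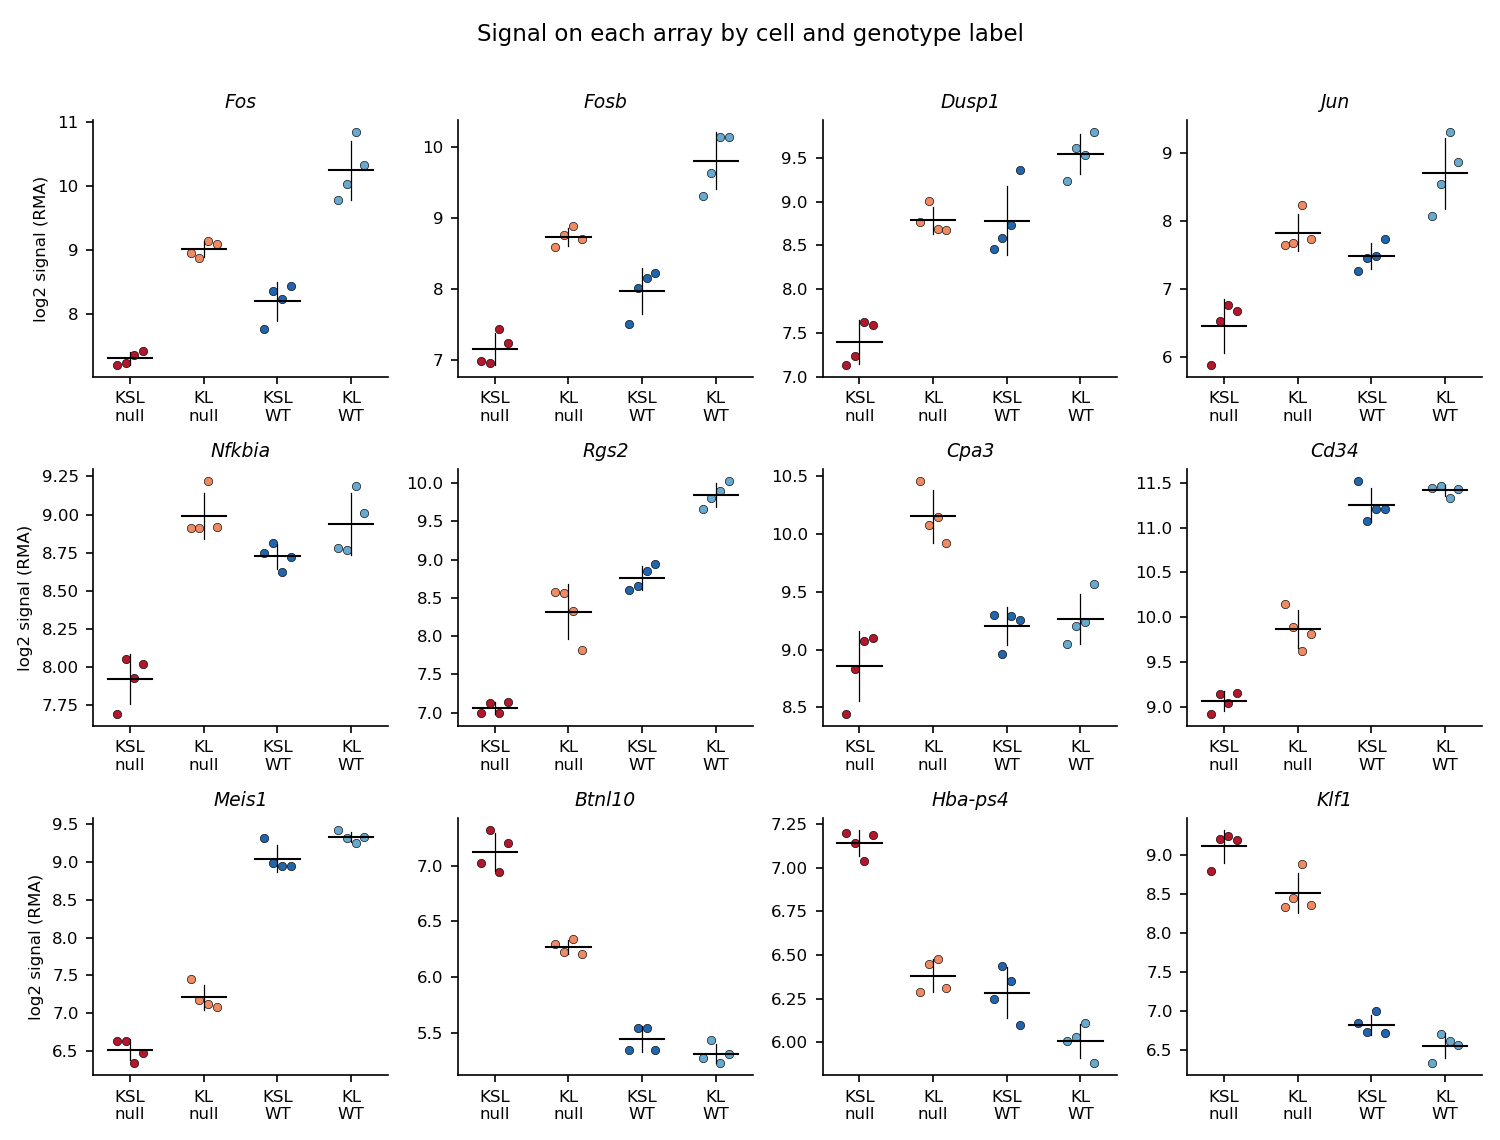
Log2 signal of 12 genes on each of the 16 arrays, in the order KSL null, KL null, KSL WT and KL WT, each panel on its own axis. Points are arrays, horizontal lines are group means and vertical lines span 1 SD on each side (n = 4). Of the 12, Klf1 is the gene whose KSL null (8.80 to 9.25) and KL null arrays (8.34 to 8.89) overlap.

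The stem cell genes that were called were lower in KSL null than in KL null. Of 46 measured genes of the stem cell list, 9 were called lower and none higher, with a median of -0.04, 29 genes below 0 and 17 above. Over all probe sets 0.222% were called lower, 43.4% lay below 0 and the median was 0.02, so the list median was close to the background. The same shares are the background for the other lists with genes called lower. Meis1, a homeobox factor that stem cells need, was 6.63, 6.64, 6.34 and 6.48 on the KSL null arrays and 7.46, 7.17, 7.13 and 7.09 on the KL null arrays. The groups were apart, with a difference of -0.69 (SE 0.0956, adjusted p = 0.00246). Cd34, a surface sialomucin that multipotent progenitors carry and the most dormant mouse stem cells lack, was 8.92, 9.15, 9.05 and 9.16 on the KSL null arrays and 10.15, 9.89, 9.63 and 9.81 on the KL null arrays. It was lower on every KSL null array, with a difference of -0.80 (SE 0.102, adjusted p = 0.00153). Adgrg1, an adhesion G protein-coupled receptor of stem cells, lay within 9.62 to 9.78 on the KSL null arrays and 10.40 to 10.55 on the KL null arrays, a difference of -0.75 (SE 0.0992, adjusted p = 0.00203).

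Myct1, a nuclear protein of blood stem cells and endothelium, had a difference of -1.04 (SE 0.123, adjusted p = 0.000736) and the adhesion receptor Adgrl4 one of -1.01 (SE 0.159, adjusted p = 0.00574). Angpt1, the angiopoietin that binds the receptor TIE2, was at -0.80 (adjusted p = 0.00606). The ETS family factors Etv6 and Fli1 were at -0.62 (adjusted p = 0.00478) and -0.59 (adjusted p = 0.00535), and Txnip, whose product binds and inhibits thioredoxin, at -0.67 (adjusted p = 0.00711). The last 3 lay close to the fold minimum and dropped under it when an array was left out, Etv6 to -0.57 and -0.56 without KSL null or KL null replicate 1, Fli1 to between -0.58 and -0.50 without replicate 1 or 2 of either group, and Txnip to -0.57 without KSL null replicate 1. Re-applied quantile normalization put the same 3 under it as well, at -0.54, -0.51 and -0.55. Angpt1, Adgrg1, Meis1 and Hlf are among genes the study picked on arrays that include these KSL null arrays, so for them the count is not independent evidence of direction.

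Other genes that define stem cells did not pass. Hlf, a leucine zipper factor of stem cells, was 6.43, 6.32, 6.40 and 6.18 on the KSL null arrays and 6.41, 6.30, 6.24 and 6.30 on the KL null arrays, which overlap (difference 0.02, SE 0.136). Mecom (0.08, SE 0.0817) and Procr, the protein C receptor (0.07, SE 0.0597), overlapped too. The SLAM receptor Slamf1 was at -0.32 (adjusted p = 0.451). Flt3, the cytokine receptor of multipotent and lymphoid-primed progenitors, was 6.45, 6.53, 6.20 and 6.10 on the KSL null arrays and 7.32, 6.80, 6.72 and 6.72 on the KL null arrays, apart but with a difference of -0.57 that did not pass (SE 0.189, adjusted p = 0.190). Cd48, a surface protein of committed progenitors, passed the adjusted p alone (-0.53, adjusted p = 0.0492), and was called without KSL null replicate 3 or 4 (-0.61 in both). Gata2, a factor of stem cells and of mast cells, was at -0.26 (adjusted p = 0.0616).

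Of 43 genes tied to quiescence, 4 were called lower (Klf6, Meis1, Txnip and Btg2) and none higher, with a median of -0.13. Klf6 and Btg2 were counted above in the immediate-early list, and Meis1 and Txnip in the stem cell list. Under the WT label 4 quiescence genes were called lower as well, with the same median of -0.13, but they were mostly other genes. Btg2 was called under both labels, while Klf6, Meis1 and Txnip did not pass under the WT label (limma adjusted p = 0.122, 0.383 and 0.722). Btg1, a relative of Btg2, was 6.18, 6.21, 6.76 and 6.74 on the KSL null arrays and 7.22, 7.24, 6.88 and 7.27 on the KL null arrays, and its difference of -0.68 did not pass (adjusted p = 0.0898). None of the CDK inhibitors Cdkn1a (-0.37), Cdkn1b (-0.15) and Cdkn1c (0.00) passed. Without KSL null replicate 1 the count under the null label was 2.

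Lymphoid and antigen presentation genes gave few calls. Of 22 lymphoid priming genes, Mef2c, a MADS box factor that lymphoid progenitors and megakaryocytes use, was the 1 called gene, at 6.39, 6.49, 6.58 and 6.58 on the KSL null arrays and 7.30, 7.06, 7.27 and 7.13 on the KL null arrays (-0.68, SE 0.0871, adjusted p = 0.00152). Dntt, the terminal transferase of lymphoid precursors, was 5.67, 5.61, 5.77 and 5.72 on the KSL null arrays and 6.76, 6.20, 6.19 and 6.19 on the KL null arrays. These are apart, with KL null replicate 1 above the rest, and the difference of -0.64 did not pass (SE 0.196, adjusted p = 0.151). Tespa1 passed the adjusted p alone (-0.55), and was called without KSL null replicate 4 (-0.67) or KL null replicate 4 (-0.64), which puts the count at 2. Il7r was at -0.09.

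Of 9 MHC class II genes, H2-Ob, a subunit of the H2-O modulator of peptide loading, was called (-0.64, SE 0.098, adjusted p = 0.00523), with 6.43, 6.55, 6.81 and 6.61 on the KSL null arrays and 7.26, 7.06, 7.30 and 7.35 on the KL null arrays. Its partner chain H2-Oa (-0.56, adjusted p = 0.0205) and the peptide exchange chain H2-DMa (-0.54, adjusted p = 0.00231) passed the adjusted p but not the fold. The list median was -0.34, with 8 genes below 0 and 1 above. Mean signals of the list were 7.12 to 7.38 on the KSL null arrays and 7.46 to 7.65 on the KL null arrays. The chains that carry the peptide itself lay nearer 0, H2-Ab1 at -0.13, H2-Eb1 at -0.01 and H2-Aa at 0.00, as did the transactivator Ciita at 0.02. The count was 0 without KSL null replicate 1, where H2-Ob was at -0.58, and 2 without KSL null replicate 3 or KL null replicate 4, where H2-Oa was at -0.64.

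Of 25 megakaryocyte genes, 3 were called lower: Plek, the platelet protein pleckstrin (-0.69, adjusted p = 0.0175), and Mef2c and Fli1, which the lists above also hold. Itga2b, the platelet integrin chain CD41, was 7.94, 7.87, 7.80 and 7.82 on the KSL null arrays and 8.49, 8.30, 8.27 and 8.27 on the KL null arrays. It did not overlap and passed the adjusted p, but not the fold (-0.48, SE 0.0681, adjusted p = 0.00334). Pf4 (-0.32, SE 0.272) and Vwf (-0.08, SE 0.0476), which platelets store, did not pass. The list median was -0.14, with 20 genes below 0 and 5 above. The call of Plek was lost in 5 of the 8 fits with 1 array left out (adjusted p = 0.0521 to 0.0733, without KSL null replicate 2 or 4 or KL null replicate 1, 2 or 3), and the count was 1 without KSL null replicate 2 or KL null replicate 1 or 2.

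Cpa3, the carboxypeptidase of mast cell granules, was among the largest differences at 8.44, 8.83, 9.07 and 9.10 on the KSL null arrays and 10.46, 10.08, 10.15 and 9.92 on the KL null arrays. The groups were apart, with a difference of -1.29 (SE 0.148, adjusted p = 0.000736), 2.45-fold lower. It was the 1 called gene of 24 for mast cells, basophils and eosinophils (median -0.20, 19 genes below 0 and 5 above). Hdc, which makes histamine, passed the adjusted p alone (-0.57, adjusted p = 0.0175), and the count rose to 2 or 3 without KSL null replicate 2 or 3 or KL null replicate 3 or 4. Granule genes of basophils and eosinophils spread widely among replicates: Prg2, the eosinophil major basic protein, was 7.63, 9.20, 10.24 and 10.39 on the KSL null arrays and 11.37, 10.62, 10.01 and 9.92 on the KL null arrays, which overlap (-1.11, SE 0.522, adjusted p = 0.394). Fcer1a, the alpha chain of the IgE receptor, was 5.39, 5.39, 7.33 and 7.53 on the KSL null arrays and 6.58, 6.43, 7.13 and 7.39 on the KL null arrays, a spread within the group larger than the difference of -0.47 (SE 0.58). That spread followed the replicate number, with replicates 1 and 2 below replicates 3 and 4 in these and in both WT groups. Camkk2 split between the same replicates, in the other direction. The mean signal of the list was 6.35 to 6.85 on the KSL null arrays and 6.79 to 7.13 on the KL null arrays, and its part in other differences was not tested.

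Rnase6, an antimicrobial ribonuclease, had a difference of -1.10 (SE 0.171, adjusted p = 0.00535), Ctla2b, a homolog of a cathepsin propeptide, was 2.01-fold lower (adjusted p = 0.00975), and the melanocortin receptor Mc5r was at -0.97 (adjusted p = 0.00817). The genes that follow in this paragraph were chosen after their values were seen. Sox4, an HMG box factor of early progenitors, was 8.06, 8.29, 8.12 and 8.15 on the KSL null arrays and 9.34, 8.97, 8.91 and 8.83 on the KL null arrays (-0.86, adjusted p = 0.00152). Ctla2a, the neighbour in kind of Ctla2b, was at -0.93 (adjusted p = 0.00569), although close paralogs may share probes. The neighbouring membrane protein genes Tmem176a and Tmem176b were at -0.70 (adjusted p = 0.000379) and -0.78 (adjusted p = 0.00844). Tnfaip3, the ubiquitin-editing brake on NF-kB, was at -0.77 (adjusted p = 0.00569) and Dusp6, an ERK phosphatase, at -0.70 (adjusted p = 0.00584).

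Ripk3, the kinase of necroptosis, was 8.01, 8.16, 8.33 and 8.45 on the KSL null arrays and 8.83, 8.93, 8.81 and 8.85 on the KL null arrays (-0.62, adjusted p = 0.00229), and Casp1, the caspase of the inflammasome, was at -0.82 (adjusted p = 0.0468). The adaptors Stap1 (-0.83, adjusted p = 0.00607) and Dapp1 (-0.87, adjusted p = 0.00535) act below tyrosine kinases and phosphoinositide 3-kinase. Trf, which encodes transferrin, was at -0.83 (adjusted p = 0.00817) and the intermediate filament gene Vim at -0.67 (adjusted p = 0.00203). Xist, the RNA that silences an X chromosome in female cells, was 9.40, 9.56, 10.05 and 9.91 on the KSL null arrays and 10.15, 10.43, 10.39 and 10.35 on the KL null arrays (-0.60, adjusted p = 0.0409). These genes too were chosen after their values were seen. Xist lost its call in 6 of 8 fits with 1 array left out (adjusted p = 0.0596 to 0.128; it was kept without KSL null replicate 3 or 4), Casp1 in 5 (adjusted p = 0.0676 to 0.160; kept without KSL null replicate 3 or 4 or KL null replicate 4), and Ripk3 fell under the fold minimum without KSL null replicate 1, at -0.54.

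Red cell genes were among those higher in KSL null. Of 40 measured erythroid genes, 3 were called higher and none lower, beside 0.0359% of all probe sets called higher. Without the fold minimum 10 passed the adjusted p as higher, beside 0.271% of all probe sets. Above 0 lay 34 genes and below it 6, where 43.4% of all probe sets lay below 0. The list median was 0.24 beside 0.02 for all probe sets. Klf1, the master factor of red cell maturation, was 8.80, 9.21, 9.25 and 9.19 on the KSL null arrays and 8.34, 8.45, 8.89 and 8.36 on the KL null arrays. KSL null replicate 1 was below KL null replicate 3, and the difference was 0.60 (SE 0.126, adjusted p = 0.0311). Cldn13, a claudin of erythroblasts, was 10.03, 10.43, 10.34 and 10.54 on the KSL null arrays and 9.07, 9.79, 9.88 and 9.45 on the KL null arrays, apart with a difference of 0.79 (SE 0.153, adjusted p = 0.0197). Tspan33, a tetraspanin of erythroid progenitors, was at 0.62 (adjusted p = 0.0428).

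All 3 calls were lost when the 8 null arrays were fitted alone, without the spread of the WT arrays (adjusted p = 0.0908 for Klf1, 0.0825 for Cldn13 and 0.0828 for Tspan33), and each also depended on single arrays. Tspan33 lost its call in 7 of 8 fits with 1 array left out (adjusted p = 0.0547 to 0.125, all but KL null replicate 3), Klf1 in 6 (0.0674 to 0.114, all but KSL null replicate 1 and KL null replicate 3) and Cldn13 in 4 (0.0507 to 0.0641, without KSL null replicate 2 or 4 or KL null replicate 1 or 4), so that the count ranged from 0 to 3. Gata1, the factor that drives red cell and megakaryocyte genes, was 7.54, 7.58, 7.45 and 7.56 on the KSL null arrays and 7.13, 7.35, 7.33 and 7.30 on the KL null arrays, which are apart, and passed the adjusted p but not the fold (0.26, SE 0.0585, adjusted p = 0.0478). The erythropoietin receptor Epor did likewise (0.51, adjusted p = 0.0490), as did the membrane skeleton genes Ank1 (0.47, adjusted p = 0.00817), Epb42 (0.45) and Sptb (0.31) and the heme synthesis genes Uros (0.40) and Cpox (0.50). Rhag, the Rh-associated glycoprotein, was 10.61, 10.84, 10.38 and 10.55 on the KSL null arrays and 9.86, 10.15, 10.30 and 10.05 on the KL null arrays, apart but not past the test (0.51, SE 0.206, adjusted p = 0.310). Car1, the carbonic anhydrase of red cells, overlapped (-0.02, SE 0.226).

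Higher genes outside that list included some with little spread among replicates. Btnl10, a butyrophilin-like gene, was 7.02, 7.32, 6.94 and 7.20 on the KSL null arrays and 6.30, 6.22, 6.34 and 6.21 on the KL null arrays, a difference of 0.85 (SE 0.078, adjusted p = 0.000178), 1.81-fold higher. The alpha globin pseudogene Hba-ps4 was 7.20, 7.14, 7.04 and 7.19 on the KSL null arrays and 6.29, 6.45, 6.48 and 6.31 on the KL null arrays, a difference of 0.76 (SE 0.0727, adjusted p = 0.000178), and its probes may also read near-identical globin transcripts. Trim10, a RING finger gene of erythroid cells, was 6.53, 6.80, 6.54 and 6.61 on the KSL null arrays and 5.73, 5.97, 6.01 and 5.89 on the KL null arrays (0.72, SE 0.0973, adjusted p = 0.00229). None of these genes overlapped between the groups. Plpp1, a phospholipid phosphatase, was at 0.89 (SE 0.127, adjusted p = 0.00334), the transporter Slc6a20a at 0.72 (adjusted p = 0.013, and 0.0566 without KL null replicate 1), the fatty acid desaturase family gene Fads3 at 0.72 (adjusted p = 0.00817) and Pkhd1l1 at 0.60 (adjusted p = 0.000736), which fell under the fold minimum without KSL null replicate 2 (0.52) or KL null replicate 1 (0.58). Next in size among genes whose arrays did not overlap, and not called, were Paqr9 (0.73, adjusted p = 0.0947), Tspan8 (0.69, adjusted p = 0.114), Nxpe2 (0.60, adjusted p = 0.132), Scrn3 (0.57, adjusted p = 0.0544) and Atp7b (0.52, adjusted p = 0.00569). Of these, Paqr9 without KSL null replicate 3 (0.89), Scrn3 without KL null replicate 3 (0.70) and Atp7b without KL null replicate 4 (0.62) were called.

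Of the called higher genes with a RefSeq window, Btnl10 and Trim10 hold AGATAA, the core letters of a GATA factor site, in the 250 bases before their starts, and they are shown because Gata1 was among the genes that passed the adjusted p. These letters were found, on either strand, in 9.99% of the 32851 windows, in 2 of the 6 called higher genes with a window and in 7 of the 50 called lower genes with a window. In both stretches it stands on the opposite strand and so reads TTATCT, in capitals, beginning 178 bases before the start of Btnl10 (chr11:58917695-58917770, plus strand) and 163 bases before that of Trim10 (chr17:36869376-36869451, plus strand).
Btnl10: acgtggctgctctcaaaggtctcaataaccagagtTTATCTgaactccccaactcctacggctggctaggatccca
Trim10: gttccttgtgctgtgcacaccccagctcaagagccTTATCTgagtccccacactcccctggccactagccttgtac
Btnl10 holds a further copy 14 bases before its start. Occupancy by GATA factors was not measured.

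Granulocyte and macrophage genes gave no calls in either direction among 38 measured, with a median of -0.13. Below 0 lay 31 of them and above it 7, where 43.4% of all probe sets lay below 0. The elastase Elane overlapped, at 12.51, 12.57, 12.71 and 12.51 on the KSL null arrays and 12.79, 12.88, 12.53 and 12.53 on the KL null arrays (-0.11, SE 0.187). Myeloperoxidase, Mpo, was at -0.37 (adjusted p = 0.289), Ms4a3 at -0.12 and Csf1r, the M-CSF receptor, at -0.33. Cebpa, the factor of myeloid commitment, was 8.98, 9.46, 9.03 and 9.02 on the KSL null arrays and 9.88, 9.93, 9.38 and 9.05 on the KL null arrays, which overlap (-0.44, SE 0.156, adjusted p = 0.226), and was called without KL null replicate 4 (-0.61). Lyz2 (-0.46, adjusted p = 0.00986), Serpinb1a (-0.50, adjusted p = 0.0335) and Ccl9 (-0.33, adjusted p = 0.0465) passed the adjusted p alone, Serpinb1a reaching the fold without KL null replicate 3 (-0.59).

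The calprotectin genes S100a8 and S100a9, which neutrophils carry in bulk, had the largest positive differences among all list members, without passing. S100a8 was 9.12, 9.94, 9.33 and 8.51 on the KSL null arrays and 8.91, 9.09, 6.83 and 6.97 on the KL null arrays, which overlap (1.27, SE 0.512, adjusted p = 0.303). S100a9 was 7.65, 9.02, 8.49 and 7.83 on the KSL null arrays and 7.38, 7.72, 6.76 and 6.42 on the KL null arrays (1.18, SE 0.32, adjusted p = 0.106). For both, KL null replicates 3 and 4 were the low ones. The 17 mature neutrophil genes had mean signals of 5.79 to 5.93 on the KSL null arrays and 5.63 to 5.87 on the KL null arrays.

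Cell cycle genes gave no calls among 54 measured (median 0.05), though Cenpe (0.35, adjusted p = 0.0121) and Cenpf (0.22, adjusted p = 0.0326), which act at kinetochores, passed the adjusted p. Mki67, the proliferation marker, was 9.32, 9.68, 9.56 and 9.53 on the KSL null arrays and 9.22, 9.19, 9.13 and 9.07 on the KL null arrays, apart but not past the test (0.37, SE 0.118, adjusted p = 0.168). Cyclin E1, Ccne1, was at 0.37 (adjusted p = 0.243). Markers of other cells gave no calls either: none of 16 genes of dendritic cells, 19 of monocytes and macrophages, 15 of B cells, 25 of T and NK cells and 20 of endothelium and stroma was called, with medians from -0.03 to 0.05. No interferon gene was called of 34, and none of 22 kinases of the calmodulin and AMPK pathways.

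**Figure D4:**
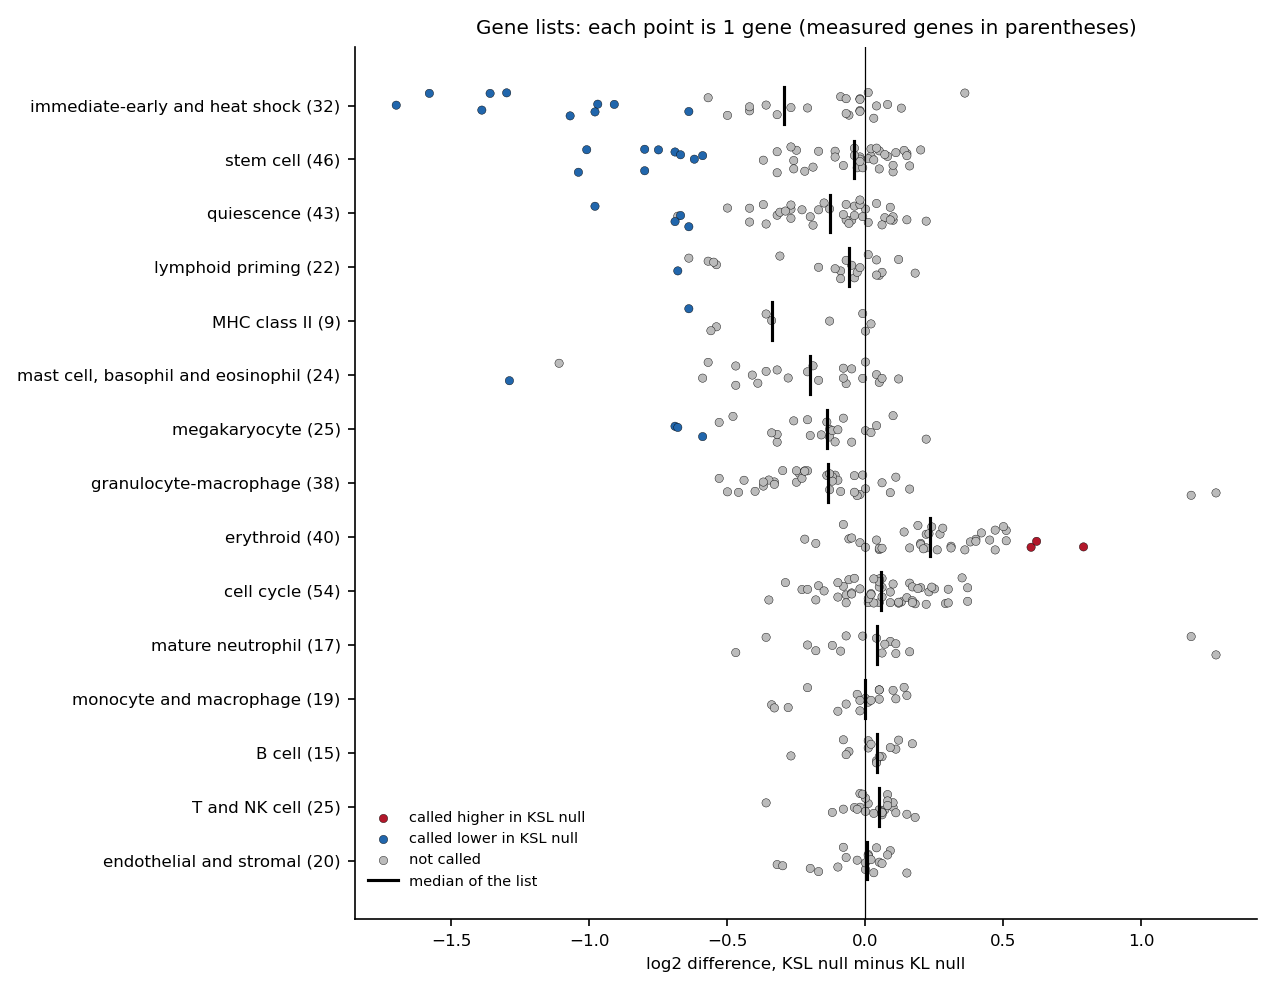
Log2 difference (KSL null minus KL null) of every measured gene of 15 lists, with the number of measured genes in parentheses. Coloured points are called genes, grey points are not called, and bars are list medians. The immediate-early list holds 10 called genes and a median of -0.30, the erythroid list 3 called genes and a median of 0.24, and the lists for B, T and NK, endothelial and monocyte cells hold none.

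The same comparison on the WT arrays gave 23 probe sets lower (0.0751%) and 3 higher (0.00979%) in KSL WT than in KL WT. Its group means share no array with the null comparison, but both took their spread between arrays from the same fit over all groups. The calls under both labels are thus not independent of each other. Fitted on its own arrays alone, the WT comparison gave 5 lower and 2 higher, and the null comparison 59 and 8. The overlaps that follow are from the fit over all groups. Called under both labels were 7 lower probe sets, which are 10.3% of the null list and 30.4% of the WT list (Fos, Fosb, Rgs1, Rgs2, Cd69, Btg2 and Myct1), and 1 higher, Cldn13, which is 9.09% of the null list and 33.3% of the WT list. Of the 68 genes lower under the null label, 63 had the same sign under the WT label, beside 56.2% of all probe sets below 0 under the null label, with medians of -0.72 under the null label and -0.26 under the WT label. Of the 11 higher under the null label, 9 had the same sign under the WT label, beside 56% of all probe sets above 0 under the null label. All 23 lower under the WT label were below 0 under the null label, where 43.4% of all probe sets lay below 0. Their medians were -0.42 under the null label and -0.89 under the WT label. The WT list was led by immediate-early genes too, of which 11 of 32 were called lower with a list median of -0.56.

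Some genes looked unlike under the 2 labels, but no difference between the labels passed. Cpa3 was at -1.29 under the null label and -0.06 under the WT label (difference of the differences -1.23, adjusted p = 0.127), Nfkbia at -1.07 and -0.21 (-0.85, adjusted p = 0.127) and Trim10 at 0.72 and -0.03 (0.75, adjusted p = 0.127). In the other direction stood Nr4a1, at -0.42 under the null label and -1.76 under the WT label (1.34, adjusted p = 0.634), Ptgs2 at -0.36 and -1.12 (0.76, adjusted p = 0.185), Plk2 at -0.20 and -0.91 and Gem at -0.17 and -0.78. The test of the difference in limma called 0 probe sets (0%), with 1888 at an unadjusted p under 0.05 (6.16%). Among genes higher under the WT label, Gzma, a granzyme, was at 0.15 under the null label (adjusted p = 0.554) and 0.69 under the WT label.

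**Figure D5:**
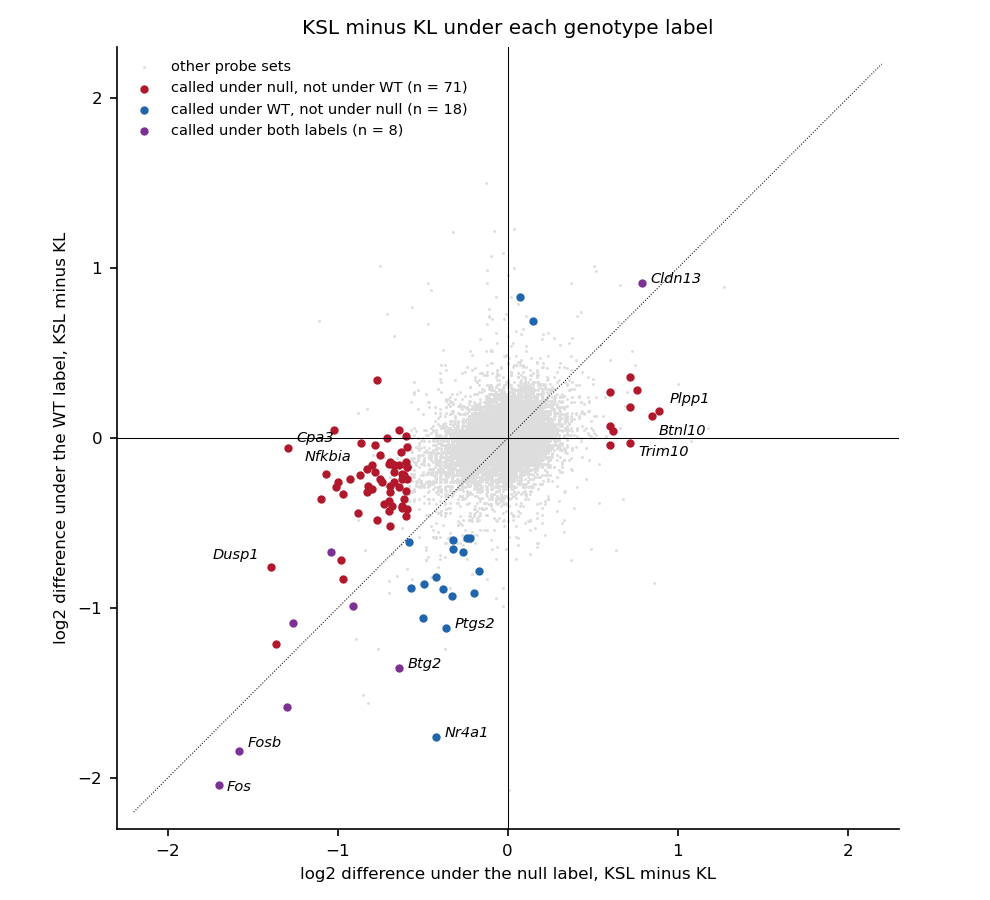
Log2 difference KSL minus KL under the null label (across) and under the WT label (upward) for each probe set that names 1 gene, with the dotted line where both are equal. Red points were called under the null label and not under WT (71), blue points under WT and not under null (18), and purple points under both (8). Cpa3 and Nfkbia lie near 0 upward, Nr4a1 and Ptgs2 far below the dotted line.

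The called genes were also set beside the WT arrays, as a description, since choosing genes that are lower in KSL null than in KL null already favours the KSL null mean as the lowest. Of the 68 probe sets called lower, the KSL null mean was the lowest of the 4 group means for 66 and the KL WT mean the highest for 59, beside 53.9% and 31.8% of the 13284 probe sets whose KSL null mean was below the KL null mean. All 4 KSL null arrays were below all 8 WT arrays for 62 of the 68, and all 4 KL null arrays were below all 8 WT arrays for 41, beside 19.3% and 11.8% of those probe sets. Of the 11 called higher, the KSL null mean was the highest for all 11 and the KL WT mean the lowest for 9, beside 77% and 43.2% of the 17354 probe sets whose KSL null mean was above the KL null mean. For the 9 called stem cell genes the KSL null mean was the lowest and the KL WT mean the highest in each, and Meis1 read 8.94 to 9.31 on the KSL WT arrays and 9.25 to 9.42 on the KL WT arrays, above every null array. Fos and Cpa3 differed from Meis1 in their order. Fos too had its lowest mean in KSL null (7.31) and its highest in KL WT (10.24). It was 7.77 to 8.45 on the KSL WT arrays, though, which is below the KL null arrays. Cpa3 was higher in KL null than in both WT groups, with means of 10.15 in KL null, 9.20 in KSL WT and 9.27 in KL WT.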

How the data were processed

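KSL and KL cells were sorted from marrow into lysis buffer, and their total RNA was hybridized to whole-transcript mouse arrays. The authors deposited log2 values made with RMA in Partek 6.6, according to the submitters' processing notes, with array medians between 5.01 and 5.12, and these values were used as they stand. RMA puts all arrays on a common distribution, so a shift of most genes in a direction would be removed. Probe sets were named through the platform annotation, and of 32814 listed with a gene, 2176 that name several genes were left out. A linear model of 4 group means over all 16 arrays was fitted by lmFit and eBayes (two-sided) of limma 3.58.1 under R 4.3.3, with Benjamini-Hochberg adjustment over 30638 probe sets. The fit was tested on simulated data. Lists use the brightest probe set of a gene.

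Named were up to 15 called genes of largest difference in each direction (filled up with the next in size whose arrays do not overlap), up to 15 called under the WT label, called list members, and 32 chosen marker genes, leaving out predicted genes and small RNAs. A further 35 genes were chosen after their values were seen. Members, lists and markers were chosen with earlier results of these data known. Alternatives were the 8 arrays alone, a block for the replicate number, re-applied quantile normalization, median centring, a mean log2 signal of at least 6, the brightest probe set per gene, eBayes with trend and robust, no fold minimum, the methods' t-test, and leaving out each array in turn. Promoter windows are from RefSeq (GRCm38.p6).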

Additional observations from a re-analysis of the deposited data

Results flagged for a closer look

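For 113 named genes, each group of 4 null arrays was examined for an array far from the other 3 by Dixon's test, and 13 of 226 groups had one. Chance gives about 1 in 20 groups. KSL null replicate 1 stood low for Klf1 (8.80, the others 9.19 to 9.25) and for Lyz2 (7.96, the others 8.09 to 8.12), and KSL null replicate 2 stood high for Cebpa (9.46, the others 8.98 to 9.03). KL null replicate 1 stood high for Flt3 (7.32, the others 6.72 to 6.80), Dntt (6.76, the others 6.19 to 6.20), Gata2 (8.30, the others 8.14 to 8.16) and Itga2b (8.49, the others 8.27 to 8.30), and low for Fads3 (7.55, the others 8.05 to 8.08). KL null replicate 3 stood high for Jun (8.23, the others 7.65 to 7.74) and Nfkbia (9.22, the others 8.91 to 8.92) and low for Btg1 (6.88, the others 7.22 to 7.27). KL null replicate 4 stood low for Dusp2 (7.05, the others 7.37 to 7.38) and high for Sptb (6.85, the others 6.63 to 6.65).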

How the results depend on the processing

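The direction of every named gene that was called in KSL null against KL null was the same under every alternative run. Of 54 such genes, 35 kept their call whichever array was left out. Leaving out an array gave 47 to 88 lower and 7 (without KL null replicate 1) to 12 higher calls, against 68 and 11, and under the WT label 9 (without KL WT replicate 4) to 62 (without KSL WT replicate 2) lower and 1 to 6 higher, against 23 and 3. The lists ranged from 6 to 9 for stem cell genes, 9 to 10 for immediate-early genes, 0 to 3 for erythroid genes, 2 to 4 for quiescence, 1 to 3 for megakaryocyte genes, 1 to 3 for mast cell genes, 0 to 2 for MHC class II, 1 to 2 for lymphoid priming, 1 to 2 for progenitor surface markers and 0 to 1 for KL markers.

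With the replicate number as a block, the null comparison gave 69 lower and 11 higher calls over 16 arrays, and 47 and 12 over the 8 null arrays. Deviations of same-numbered KSL null and KL null arrays correlated at 0.105, 0.149, 0.051 and 0.035, all above 0 but not all over 0.1, and not every array correlated best with its own number. The number was therefore not taken as a pairing. Whether same-numbered arrays share mice or a batch is not given and was not tested, and Camkk2 and Fcer1a differed between replicates 1 and 2 and replicates 3 and 4 in all groups. Among named genes, the block over 16 arrays lost the calls of Casp1 (adjusted p = 0.119), Xist (0.0553) and Tspan33 (0.0514) and called Dntt (-0.64, adjusted p = 0.0261). The block gave 37 lower and 8 higher calls under the WT label, 11 lower with its 8 arrays alone, and 2 lymphoid priming genes.

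Without the block, the 8 WT arrays alone gave 5 lower, and the 8 null arrays alone lost, beside the 3 erythroid calls, those of Casp1, Cd93, Tmem176b, Xist, Anxa5 and Ctla2a (adjusted p = 0.0513 to 0.146). Re-applied quantile normalization gave 5 higher under the WT label, 1 lower and 1 higher for the difference between labels, 5 erythroid genes and 2 KL markers. Median centring gave 7 higher in KSL null. Without a fold minimum 241 were lower and 83 higher in KSL null, and 5 higher in KSL WT. The methods' t-test gave 1867 lower and 2150 higher in KSL null, and 953 and 775 in KSL WT, at an unadjusted p under 0.05. After Benjamini-Hochberg adjustment it gave 4 lower and 0 higher in KSL null and 0 and 0 in KSL WT. The cause of these shifts was not tested, beyond fewer arrays or a looser threshold where the alternative is that by construction.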

Other observations

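Of 35318 further features that name several genes or none, 51 were lower and 5 higher in KSL null than in KL null by the same rule (0.159%), and none of them is described here by gene. Surface markers of progenitors were called once among 24 measured, with Cd34 lower in KSL null, a list median of -0.17, and the KSL null mean lowest of the 4 groups for 15 of the 24. The interferon list, with no call, had the KSL null mean lowest for 18 of 34 genes and the KSL WT mean highest for 20. Over all 30638 probe sets, the KSL null mean was lowest for 7157 (23.4%) and the KSL WT mean highest for 5050. These orders are descriptions, and no list was tested for them.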
